A study of Mus musculus with 24 samples.

Results

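The forkhead genes of the outflow vessels described here are Foxf1, Foxf2, Foxc1, Foxc2, Foxl1, Foxs1, Foxd1, Foxp1 and Foxp2, with the addition of Fendrr, the long non-coding RNA gene that starts beside Foxf1. They were found in the count table by gene symbol and make up 10 of its 54752 genes. Of these, 9 passed the filter on low counts and were tested in a fit of 16463 genes, and Foxf2 was too low for that fit.

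Gene expression was measured by bulk RNA-Seq in the ductus arteriosus (DA), the fetal vessel that joins the pulmonary artery to the aorta and closes after birth, and in the ascending aorta of embryos just before birth (E18.5) on a C57/Black6 background. Prdm6-deficient embryos were Wnt1Cre;PRDM6f/f, in which the Wnt1 promoter drives Cre in the neural crest, so that cells of other origin in the same vessels kept Prdm6. The DA was represented by 5 libraries of Prdm6-deficient and 7 of control samples, and the aorta by 5 of Prdm6-deficient and 6 of control samples. Replicate 4 of the Prdm6-deficient DA was not used here. Most controls were PRDM6wt/f without Cre, control DA replicate 3 was PRDM6wt/wt, and control DA replicate 2 and control aorta replicate 3 came from 1 embryo that was Wnt1Cre;PRDM6wt/wt. Prdm6-deficient DA replicates 1 and 2 were each pools of 2 embryos. The study asked how loss of Prdm6 changes expression in the DA, and the aorta served to define what sets the DA apart and whether the effect depends on the vessel. Both tissues were sequenced from 6 of the control embryos, and the labels list no treatment for any group. Prdm6-deficient DA replicates 5 and 7 shared their embryos with Prdm6-deficient aorta replicates 3 and 5. The embryos pooled in Prdm6-deficient DA replicate 2 also gave aorta replicates 1 and 2.

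Forkhead proteins are transcription factors that bind DNA through a winged-helix domain. The FoxC pair acts in the neural crest, the outflow tract and the aortic arch arteries, and loss of Foxc1 or Foxc2 in mice gives aortic arch defects. The FoxF genes are hedgehog-responsive regulators of mesenchyme around the gut and lung, and Foxf1 and Fendrr are needed for the development of lung vessels and the heart. FoxP proteins act mostly as repressors in pairs with one another.

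Total counts per library ranged from 15163931 to 22610501, so that 3 counts, the smallest number taken as detected, stood for 0.135 to 0.201 CPM (counts scaled to the library total with TMM factors). Prdm6, the deleted gene, was lower in all Prdm6-deficient libraries than in any control library of the same tissue, with means of 72.7 against 108 CPM in the DA and 70.3 against 113 CPM in the aorta. Counts per gene do not tell intact from deleted transcripts, so these levels do not measure how much working Prdm6 was left. The summed CPM of 5 smooth muscle markers (Myh11, Acta2, Tagln, Cnn1 and Myocd) ranged from 12562 to 22158 in control DA, from 9193 to 11125 in Prdm6-deficient DA, from 7922 to 11318 in control aorta and from 8608 to 10321 in Prdm6-deficient aorta. In bulk tissue, fewer cells of a type and less RNA per cell cannot be told apart.

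Foxf1, Fendrr, Foxc2 and Foxl1 form a group on chromosome 8, where the starts of Fendrr, Foxc2 and Foxl1 lie 1.28, 31.8 and 43.6 kb from that of Foxf1, and Foxf2 and Foxc1 lie 181 kb apart on chromosome 13. The stretches just before Fendrr and Foxc1 are shown because these genes moved in opposite directions when Prdm6 was lost, and because the stretch before Fendrr also lies between Fendrr and Foxf1, which are read away from each other. Both are the 250 bases before the start of the gene in RefSeq, on GRCm38.p6, written 5′ to 3′ on the strand of the gene. The stretch before Fendrr is chr8:121083111-121083360 on the minus strand, and that before Foxc1 is chr13:31806396-31806645 on the plus strand. Capitals mark a match to the forkhead motif GTAAACA.
Fendrr: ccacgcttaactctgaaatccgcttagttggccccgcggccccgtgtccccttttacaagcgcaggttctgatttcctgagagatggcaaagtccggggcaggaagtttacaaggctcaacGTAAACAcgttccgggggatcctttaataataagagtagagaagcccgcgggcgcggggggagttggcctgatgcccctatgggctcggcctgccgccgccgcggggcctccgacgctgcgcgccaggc
Foxc1: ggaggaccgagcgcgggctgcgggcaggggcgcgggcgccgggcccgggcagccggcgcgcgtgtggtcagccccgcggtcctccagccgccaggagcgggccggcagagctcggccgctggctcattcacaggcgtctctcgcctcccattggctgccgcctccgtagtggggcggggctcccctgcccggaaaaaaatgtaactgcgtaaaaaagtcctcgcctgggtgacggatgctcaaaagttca

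The motif searches covered both strands and 3 sequences, GTAAACA (forkhead), GACCACCCA (GLI, the hedgehog effectors) and GTGGGAA (RBPJ, the Notch effector), which were present in 3.17%, 0.225% and 5.42% of 32851 such stretches of all genes. The RefSeq table held a start for Fendrr, Foxf2, Foxc1, Foxd1 and Foxp1, the last of these with 3 starts. The only match in these 7 stretches was the forkhead motif before Fendrr, 129 to 123 bases from its start. The GC content was 62% before Fendrr and 70.8% before Foxc1, against a median of 52.4% over all stretches. A match is a description of the letters and not evidence of binding.

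Genes were called when edgeR's quasi-likelihood test gave an adjusted p under 0.01 with a log2 fold change of more than 0.5 in size. With loss of Prdm6 in the DA, 3 of the 9 tested forkhead genes rose (Foxc1, Foxs1 and Foxl1), where 2.61% of all tested genes did, and 2 fell (Foxf1 and Fendrr), against 2.82%, so that 5 were called, against 5.43% of all genes. In the aorta 2 rose (Foxc1 and Foxp2), against 1.63%, and 2 fell (Foxf1 and Fendrr), against 0.826%, with 2.45% of all genes called. In controls 3 were higher in the DA than in the aorta (Foxf1, Fendrr and Foxp1), against 3.16%, and 3 were lower (Foxc1, Foxs1 and Foxl1), against 2.19%, with 5.36% of all genes called. These comparisons share control libraries. The members were chosen with earlier results of these data known, and Fendrr entered the fit through the control DA libraries. The counts here and in the following paragraph are therefore no test of whether forkhead genes change more often than others.

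Between the Prdm6-deficient tissues 0 of the 9 were called by edgeR, DESeq2 or limma-voom, and 2 (Foxf1 and Foxp1) had an unadjusted edgeR p under 0.05, as did 1654 of the 16463 genes tested. Of all genes 0.267% were called there, 0.152% as higher and 0.115% as lower in the DA. The effects of Prdm6 loss in DA and aorta were also compared with each other, and 0 of the 9 were called by any of the 3 tools, with 6 at an unadjusted edgeR p under 0.05, against 15.9% of all genes, of which 2.58% were called, 0.917% as higher and 1.66% as lower. The values of the groups did not overlap for 4 of the 9 genes with loss of Prdm6 in the DA (5.66% of all genes), 4 in the aorta (6.95%), 5 between the control tissues (5.36%) and 1 between the Prdm6-deficient tissues (3.52%).

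Foxf1 (ENSMUSG00000042812.5, chromosome 8, 121084386 to 121088144, plus strand of mm10) had, with Fendrr, the largest log2 changes of the 9 tested genes, both between the control tissues and with loss of Prdm6 in the DA. In control DA the 7 libraries lay between 55.6 and 105 CPM, with a median of 68.3. In Prdm6-deficient DA the values were 2.99, 0.0568, 1.79, 3.97 and 3.68 CPM in replicates 1, 2, 5, 6 and 7. All of the Prdm6-deficient libraries were below all of the controls, and replicate 2, a pool of 2 embryos, held 1 count. The mean fell from 76.3 ± 20.0 (SD, n = 7) to 2.50 ± 1.60 CPM (SD, n = 5), which on the log2 scale was -4.93 (SE 0.60, 95% interval -6.10 to -3.76, edgeR quasi-likelihood adjusted p = 1.3e-06).

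Foxf1 was already low in the aorta. In control aorta it ranged from 1.08 to 18.3 CPM with a median of 5.24, and in Prdm6-deficient aorta it was 0.477, 0.458, 0.369, 2.14 and 0.195 CPM in replicates 1 to 5. The highest control aorta value was that of replicate 4, and the next highest was 8.05 CPM, in replicate 5. Replicate 4 of the Prdm6-deficient aorta was higher than the lowest control library, so the groups overlapped. The mean fell from 6.73 ± 6.15 to 0.728 ± 0.797 CPM, which was -3.19 on the log2 scale (SE 0.64, adjusted p = 0.00183). With limma-voom this was not called (log2 fold change -3.18, adjusted p = 0.173). Control DA was above control aorta in all libraries and in 6 of 6 embryos with both tissues, with a log2 difference of 3.50 (SE 0.50, adjusted p = 1.3e-05; with the embryo as a block 3.77, adjusted p = 1.0e-04). The difference between the effects of Prdm6 loss in the DA and in the aorta was -1.74 (SE 0.85) on the log2 scale and did not pass (adjusted p = 0.317).

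Fendrr (ENSMUSG00000097336.8, chromosome 8, 121054882 to 121083110, minus strand) starts 1276 bases from the start of Foxf1 and is read in the other direction. In control DA it ranged from 2.38 to 9.79 CPM with a median of 4.58, 683 counts in all. No count was found in any of the 5 Prdm6-deficient DA libraries, which makes it at least 31.8-fold lower than in control DA, taking 3 counts per library as the limit (adjusted p = 9.1e-07). In control aorta it ranged from 0.0513 to 0.819 CPM with a median of 0.205, 40 counts in all, and the 5 Prdm6-deficient aorta libraries held 1 count, in replicate 3. The ratio of control to Prdm6-deficient aorta was 34.1, with a 95% counting interval from 5.78 to 1380.5 that covers counting error only. The edgeR fit gave a log2 difference of -4.37 (adjusted p = 0.00376), whose size depends on the prior count. Outside control DA, Fendrr reached at most 0.819 CPM, so it passed the filter on low counts through the control DA libraries. In the main fit it was thus tested because of the group where it was high, and its adjusted p-values carry that limit.

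The decrease of Fendrr in the aorta had an adjusted p of 0.00376 in the edgeR quasi-likelihood test. It was not called without control aorta replicate 4 (adjusted p = 0.0103), which had the highest level, nor without Prdm6-deficient aorta replicate 1, 2, 4 or 5 (adjusted p = 0.0134, 0.0146, 0.0135 and 0.0139), nor with limma-voom (adjusted p = 0.115). The call was also lost with the replicate number as a block and with the run of animal numbers, of which there were 2, as a covariate. Control DA was above control aorta by 3.98 on the log2 scale (SE 0.65, adjusted p = 1.4e-04), in 6 of 6 embryos with both tissues, and with the embryo as a block by 4.26 (adjusted p = 5.8e-04).

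**Figure D1:**
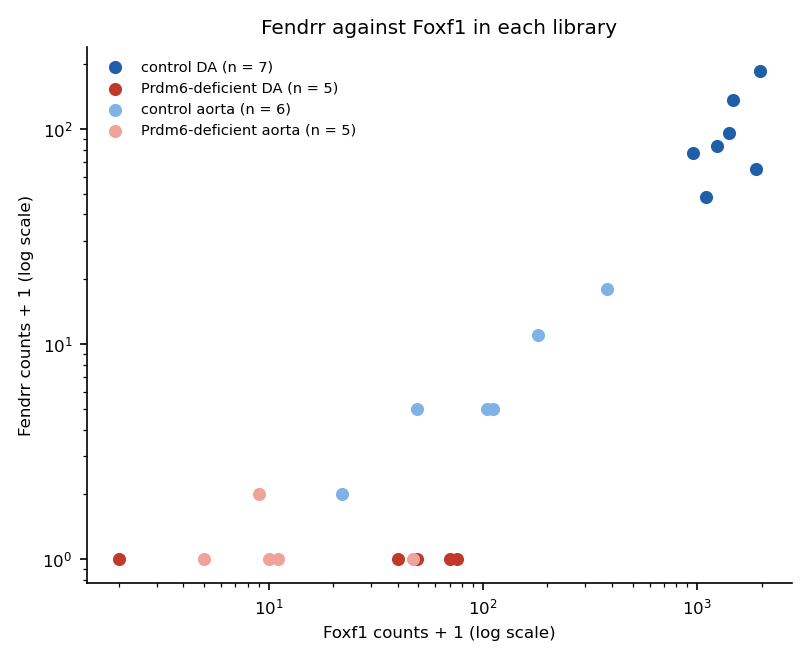
Fendrr counts plus 1 plotted against Foxf1 counts plus 1 in each library, both on log axes, with 1 color for each group. Control DA libraries hold 958 to 1962 Foxf1 and 47 to 184 Fendrr counts, and all 5 Prdm6-deficient DA libraries sit at 0 Fendrr counts with 1 to 75 Foxf1 counts.

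Within a library Fendrr had far fewer counts than Foxf1 in both control tissues. It made 6.81 counts per 100 Foxf1 counts over the control DA libraries (3.39 to 9.38 in single libraries) and 4.76 over the control aorta libraries (3.64 to 8.33). The mean log2 ratio was higher in control DA by 0.20, which did not pass (exact permutation test, 2-sided, p = 0.492, adjusted p = 0.656 over 4 comparisons). At the control DA ratio the 232 Foxf1 counts of the Prdm6-deficient DA libraries would stand beside 15.8 Fendrr counts, against 0 found. With 0.5 added to each count the ratio was lower in Prdm6-deficient than in control DA by 1.81 on the log2 scale, which did not pass either (exact permutation test, p = 0.0783, adjusted p = 0.313). With 1 added it was lower by 0.91 (exact permutation test, p = 0.306, adjusted p = 0.468), so that the size of this difference depended on the count added. In the Prdm6-deficient aorta the 77 Foxf1 counts would stand beside 3.67 Fendrr counts, against 1 found. Over the 23 libraries, with group means removed, Foxf1 and Fendrr correlated with r = 0.44, a description that rests on libraries which share groups and embryos.

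In the DA, melanocyte, smooth muscle and pericyte markers moved with Foxf1 and Fendrr. In the aorta 0 of the melanocyte and 0 of the smooth muscle markers were called with Prdm6 loss. The melanocyte markers were near the floor there, with median sums of 1.70 CPM in controls and 0.585 CPM in Prdm6-deficient aorta. A fall of these markers could therefore hardly have been called. Of 4 melanocyte markers, 3 were lower in Prdm6-deficient DA, where the summed level was 0 to 1.56 CPM against 27.7 to 214 CPM in control DA and 0.353 to 13.6 CPM in control aorta. Control aorta replicate 4, the highest of its group for Foxf1 (18.3 CPM) and Fendrr (0.819 CPM), held that 13.6 CPM, with 2.26 CPM the next highest. Its pericyte sum was also the highest of the group (3101 CPM, next highest 2283 CPM), while its smooth muscle sum (10068 CPM) lay among the others. Of 5 smooth muscle markers, 3 were lower in Prdm6-deficient DA (Myh11, Tagln and Cnn1) and 4 were higher in DA than in aorta of controls, as were 3 of the melanocyte markers. Over all tested genes 2.82% were called lower in Prdm6-deficient DA and 3.16% higher in DA than in aorta of controls. Of 5 pericyte markers, 2 were lower in Prdm6-deficient DA, Kcnj8 (58.9 against 328 CPM) and Abcc9 (79.6 against 177 CPM). Their sum of 3781 to 7692 against 5954 to 11579 CPM was mostly Rgs5, which was not called there (5307 against 7853 CPM, adjusted p = 0.054). In the aorta 1 pericyte marker was higher, Rgs5 (5290 against 1623 CPM), and 1 was lower, Abcc9 (113 against 181 CPM), where 1.63% and 0.826% of all tested genes were. Markers of lung epithelium summed to at most 2.56 CPM in any library, and mesothelium markers summed to 14.6 to 358 CPM in control DA and 3.57 to 209 CPM in Prdm6-deficient DA. The part of these cells in the result was not tested.

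Foxf2 (ENSMUSG00000038402.2, chromosome 13, 31625816 to 31631403, plus strand), the other FoxF gene and a factor of brain pericytes and gut mesenchyme, was near the limit of detection. Its highest level in any library was 1.16 CPM (25 counts), in Prdm6-deficient aorta replicate 4. More than 3 counts were found in 1 of 7 control DA, 2 of 5 Prdm6-deficient DA, 2 of 6 control aorta and 2 of 5 Prdm6-deficient aorta libraries. The difference between Prdm6-deficient and control DA was not detectable at this depth (exact permutation test, 2-sided, p = 0.162, adjusted p = 0.394 over 4 comparisons).

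**Figure D2:**
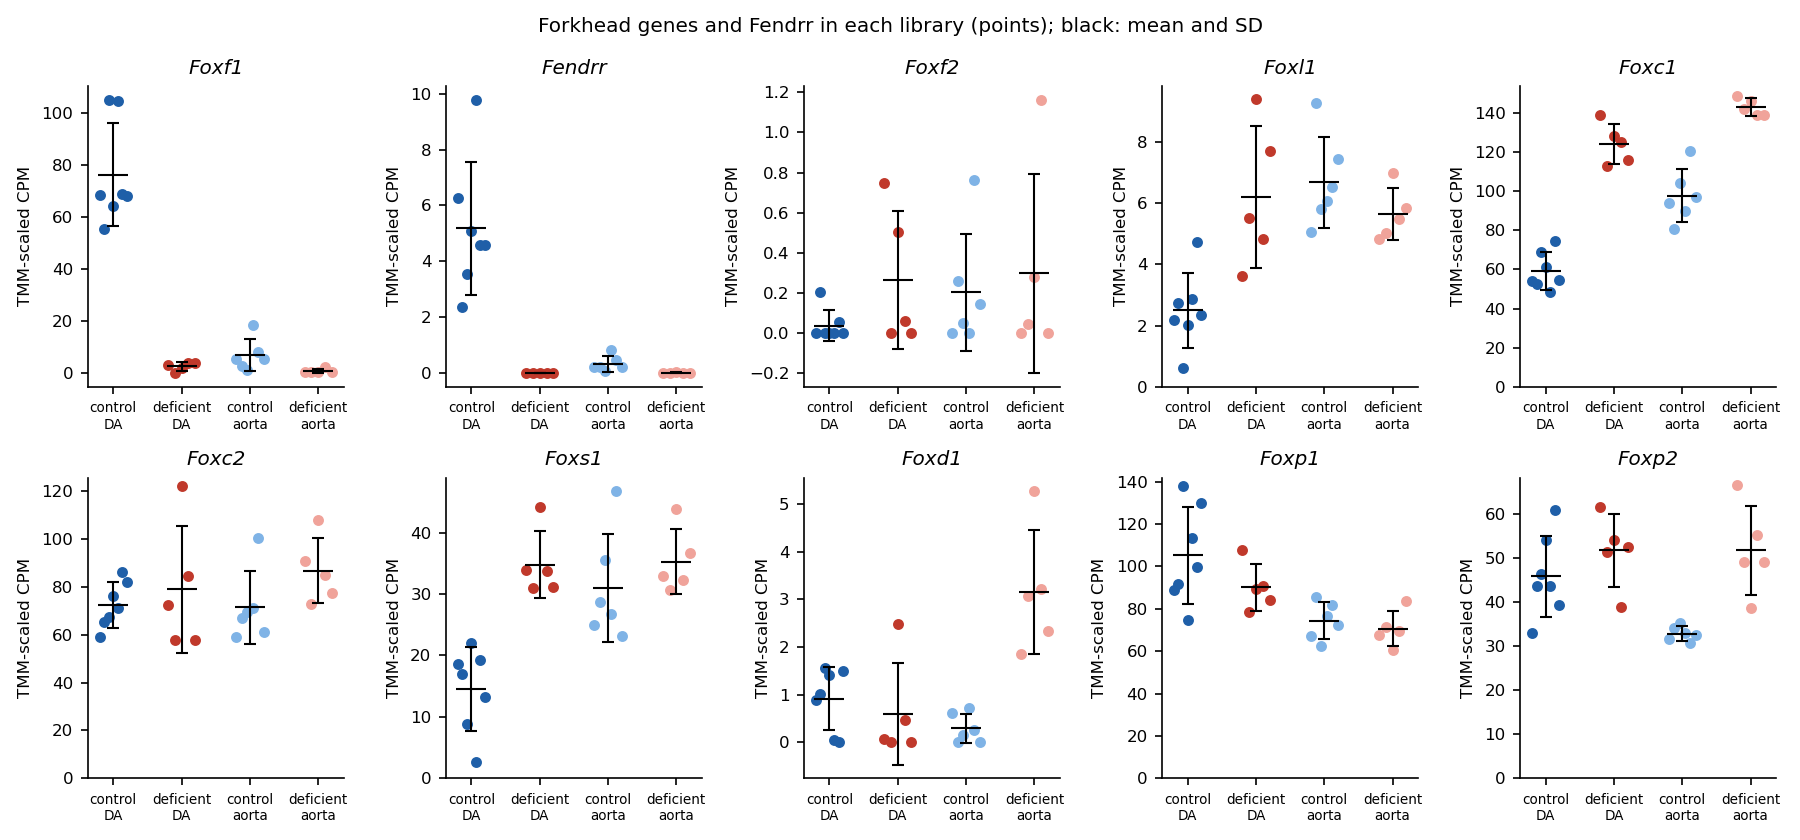
TMM-scaled CPM of each gene in every library (points) with the group mean and SD (black), on linear axes with 1 panel for each gene and the 4 groups side by side. Foxf1 and Fendrr are near 0 in Prdm6-deficient DA, Foxc1 and Foxs1 are higher there than in any control DA library, and Foxd1 has its highest mean in Prdm6-deficient aorta.

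Foxc1 (ENSMUSG00000050295.4, chromosome 13, 31806633 to 31812476, plus strand), which has a role in DA development and in arch artery patterning, moved the other way. In control DA it ranged from 48.3 to 74.6 CPM with a median of 54.7, and in control aorta from 80.6 to 121 CPM with a median of 95.5. In Prdm6-deficient DA the values were 139, 113, 128, 125 and 116 CPM, and in Prdm6-deficient aorta 149, 142, 146, 139 and 139 CPM. The lowest Prdm6-deficient library stood above the highest control library in each tissue, and Prdm6-deficient DA lay above all control aorta libraries but 1. The increase was 1.07 on the log2 scale in the DA (SE 0.10, adjusted p = 1.3e-08) and 0.55 in the aorta (SE 0.10, adjusted p = 7.6e-04, by edgeR's quasi-likelihood test). The embryos carry animal numbers from 2 separate runs, and within the first and the second run the increase in the DA was 1.11 and 0.96, and the decrease of Foxf1 -4.79 and -5.28, each of them called. These groups were small and uneven. The first run held Prdm6-deficient DA replicates 1, 5 and 6 and control DA replicates 2 and 3. The second held Prdm6-deficient DA replicates 2 (a pool) and 7 and control DA replicates 1, 4, 5, 6 and 7.

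The Foxc1 increase in the aorta was at the limit of the fold change used for calls. Without control aorta replicate 2, the lowest of that group, it was 0.50 and was not called. The difference between the increases in DA and aorta was 0.52 (SE 0.14), with an adjusted p of 0.0263 by edgeR's quasi-likelihood test, which missed the threshold of 0.01. It passed without control DA replicate 6 (0.59, adjusted p = 0.0053), which had the highest Foxc1 level of the control DA. In controls the DA was below the aorta by 0.72 (SE 0.09, adjusted p = 2.8e-06), in 6 of 6 embryos, and with the embryo as a block by 0.77 (adjusted p = 0.00189). In Prdm6-deficient embryos the same difference was 0.20 (adjusted p = 0.548), although the libraries did not overlap.

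Foxc2 (ENSMUSG00000046714.7, chromosome 8, 121116171 to 121118895, plus strand), the partner of Foxc1 in the arch arteries and a lymphatic valve factor, passed in none of the comparisons (adjusted p from 0.504 to 0.965, edgeR quasi-likelihood test). It ranged from 59.1 to 86.2 CPM in control DA with a median of 71.3, and was 72.4, 57.7, 122, 84.5 and 57.6 CPM in Prdm6-deficient DA. The groups overlapped, with replicate 5 the highest and the other values inside or just below the control range. The log2 difference was 0.12, with an interval of -0.18 to 0.43 (adjusted p = 0.712, edgeR quasi-likelihood test). It was 0.28 in the aorta (adjusted p = 0.504) and 0.02 between the control tissues, with an interval from -0.27 to 0.31. Foxc2 starts 31.8 kb from Foxf1, which fell 30.5-fold in the DA.

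Foxs1 (ENSMUSG00000074676.2, chromosome 2, 152931898 to 152933208, minus strand), a marker of pericytes and sensory neurons, rose in the DA as Foxc1 did. It ranged from 2.66 to 22.0 CPM in control DA with a median of 17.0. In Prdm6-deficient DA it was 34.0, 30.9, 44.1, 33.7 and 31.2 CPM, above all control DA values. The log2 increase was 1.26 (SE 0.28, adjusted p = 0.00258). Without Prdm6-deficient DA replicate 5, the highest library, it was 1.16 and not called (adjusted p = 0.0105). In control aorta it ranged from 23.2 to 46.7 CPM with a median of 27.8, and in Prdm6-deficient aorta it was 33.0, 30.6, 43.9, 32.2 and 36.7 CPM, so that the aorta groups overlapped (log2 difference 0.19, adjusted p = 0.912). The difference between the effects in DA and aorta was 1.08 (SE 0.40) and was not called (adjusted p = 0.144, edgeR quasi-likelihood test). Control DA was below control aorta by 1.10 on the log2 scale (SE 0.27, adjusted p = 0.00603), in 6 of 6 embryos, but the call was lost with the embryo as a block (adjusted p = 0.0370) and without control DA replicate 3 or 7 or control aorta replicate 2, 3 or 5 (highest adjusted p 0.0252, without control aorta replicate 5).

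Foxl1 (ENSMUSG00000097084.1, chromosome 8, 121127940 to 121130644, plus strand), a hedgehog-responsive gene of gut subepithelial mesenchyme, was low and followed the same direction. It ranged from 0.612 to 4.73 CPM in control DA with a median of 2.36, and was 3.62, 5.51, 9.39, 4.83 and 7.70 CPM in Prdm6-deficient DA. The lowest Prdm6-deficient library lay within the control range. The log2 increase was 1.31 (SE 0.32, adjusted p = 0.00689). It was not called without control DA replicate 1, 4, 5 or 7 or Prdm6-deficient DA replicate 2, 5 or 7 (highest adjusted p 0.0334, without Prdm6-deficient DA replicate 5). In the aorta it ranged from 5.05 to 9.26 CPM with a median of 6.30 in controls and was 4.82, 5.04, 6.97, 5.49 and 5.85 CPM in Prdm6-deficient samples (log2 difference -0.25, adjusted p = 0.896). The difference between these effects was 1.56 (adjusted p = 0.051, edgeR quasi-likelihood test). In controls the DA was lower than the aorta by 1.42 on the log2 scale (SE 0.31, adjusted p = 0.00232; 6 of 6 embryos), but with the embryo as a block it was lower by 1.28 and not called (adjusted p = 0.0151).

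Markers of fibroblasts and Schwann cells were looked at beside Foxc1, Foxs1 and Foxl1. Of 5 fibroblast markers (Pdgfra, Dcn, Lum, Col1a1 and Dpt) 1 was called higher and 0 lower with Prdm6 loss in each tissue. This was Lum, from 178 to 483 CPM in the DA and from 166 to 506 CPM in the aorta, where Foxs1 and Foxl1 were not called. Over all tested genes 2.61% were called higher in the DA and 1.63% in the aorta. Summed, the fibroblast markers were 3914 to 4715 CPM in Prdm6-deficient DA against 2409 to 4655 CPM in control DA, and 3128 to 4018 against 3854 to 4836 CPM in the aorta. The median sum in the aorta was 3461 CPM without Prdm6 and 4269 CPM in controls, so the other markers together went against Lum there. Of 5 Schwann cell markers 0 were called by edgeR. They summed to 50.4 to 106 CPM in Prdm6-deficient DA. In control DA they summed to 166 CPM in replicate 7 and to 12.9 to 27.7 CPM in the other libraries. The part of these cells in the result was not tested.

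Foxp1 (ENSMUSG00000030067.17, chromosome 6, 98925338 to 99522721, minus strand), a repressor needed for outflow tract and valve development, did not pass with loss of Prdm6. It ranged from 74.9 to 138 CPM in control DA with a median of 99.8 and was 108, 78.5, 89.4, 90.9 and 84.2 CPM in Prdm6-deficient DA, inside the control range (log2 difference -0.22, SE 0.12, adjusted p = 0.283). In the aorta it ranged from 62.7 to 85.7 CPM in controls with a median of 74.4, and was 67.6, 71.2, 60.8, 69.5 and 83.5 CPM in Prdm6-deficient samples (log2 difference -0.08, adjusted p = 0.921). Control DA was higher than control aorta by 0.50 (SE 0.12, adjusted p = 0.00383), in 5 of 6 embryos with overlapping ranges. This call sits at the threshold of 0.5, was kept in 11 of 23 fits without 1 library, and was lost with the embryo as a block (0.41, adjusted p = 0.0197). The libraries it needed were control DA replicates 3, 5 and 7, control aorta replicates 1, 3 and 6, Prdm6-deficient DA replicates 2 and 7 and Prdm6-deficient aorta replicates 1, 2, 4 and 5.

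Foxp2 (ENSMUSG00000029563.16, chromosome 6, 14901349 to 15441977, plus strand), best known from brain development and a partner of Foxp1, moved in the aorta. In control aorta it lay in a narrow range from 30.7 to 35.3 CPM with a median of 32.8. In Prdm6-deficient aorta it was 66.6, 49.3, 38.7, 55.2 and 49.2 CPM, above all controls, with a log2 increase of 0.65 (SE 0.14, adjusted p = 0.00306). Without replicate 1 or replicate 4 of the Prdm6-deficient aorta it was 0.54 (adjusted p = 0.0199) or 0.63 (adjusted p = 0.0108) and not called. In the DA it ranged from 33.1 to 61.1 CPM with a median of 43.6 in controls and was 61.7, 51.5, 54.1, 38.9 and 52.7 CPM in Prdm6-deficient samples (log2 difference 0.17, SE 0.13, adjusted p = 0.478). Control DA was higher than control aorta by 0.48 (adjusted p = 0.0118, edgeR quasi-likelihood test), in 6 of 6 embryos, and missed the call, which it reached without control DA replicate 1 or 7 (adjusted p = 0.00312 and 0.00991). The difference between its effects in DA and aorta was -0.48 (adjusted p = 0.181). In the aorta, 3 of 6 endothelial markers were higher without Prdm6 (Tek, Emcn and Tie1), against 1.63% of all tested genes. The 6 summed to 803 to 1077 CPM against 510 to 847 CPM. The pericyte markers summed to 5299 to 6097 against 1696 to 3101 CPM, mostly from Rgs5, with 1 of 5 called higher (Rgs5) and 1 called lower (Abcc9). The part of endothelial cells and pericytes in the result was not tested.

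Foxd1 (ENSMUSG00000078302.5, chromosome 13, 98354242 to 98359305, plus strand), known from kidney stroma and as a pericyte progenitor marker, was highest in the Prdm6-deficient aorta, where it was 1.85, 3.07, 5.26, 3.21 and 2.34 CPM. In control aorta it was at most 0.723 CPM, with a median of 0.212 and 2 libraries at 0, so that the groups did not overlap. The log2 difference of 3.40 (SE 1.19) had an adjusted p of 0.118 in the edgeR quasi-likelihood test and was not called. Fitted on the aorta libraries only, it had an adjusted p of 0.00464. In the DA the Prdm6-deficient libraries were at 0.0623, 0, 2.47, 0.460 and 0 CPM, and the controls ranged from 0 to 1.56 CPM with a median of 1.01, so that no difference was detectable (log2 difference -0.59, SE 1.10, adjusted p = 0.822).

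**Figure D3:**
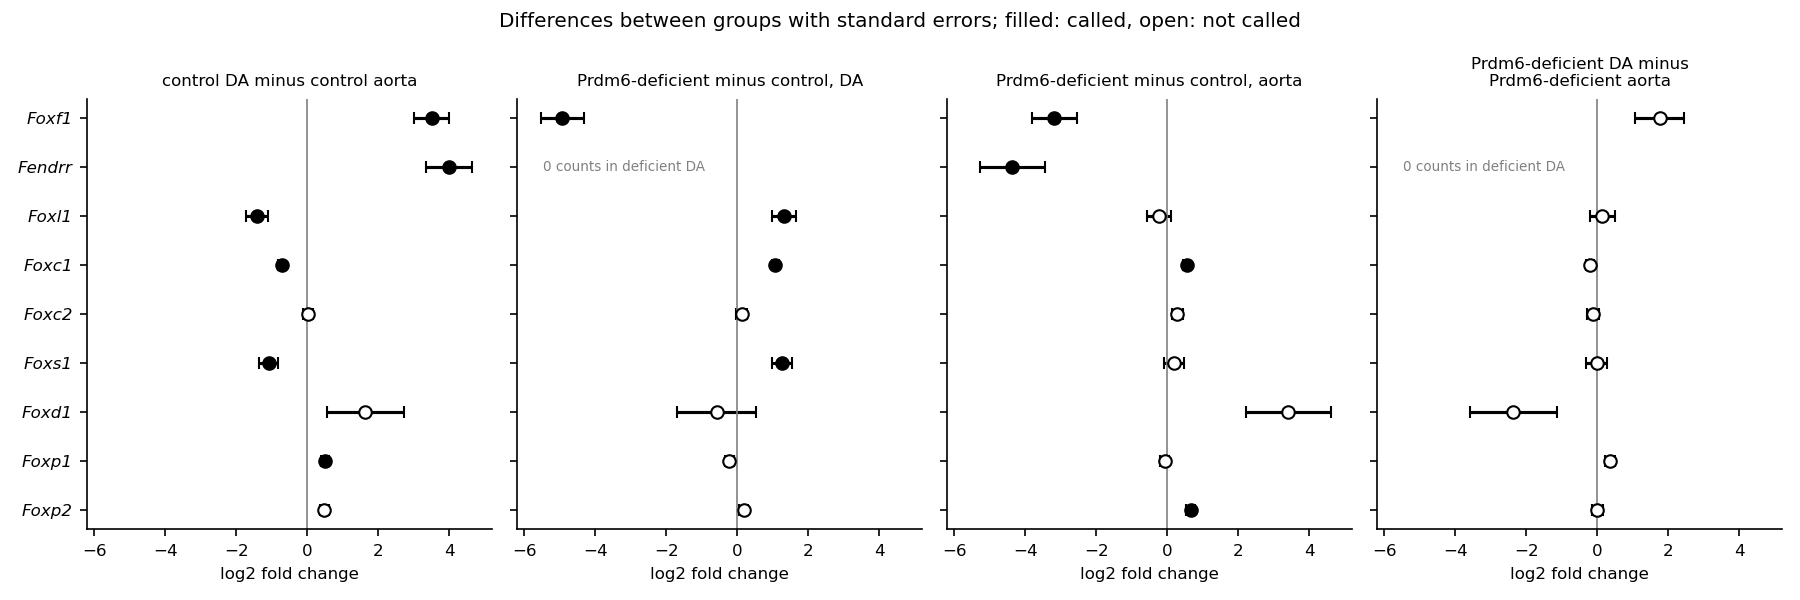
Log2 fold changes of the tested genes with standard errors, in 4 panels for the control tissues, Prdm6 loss in the DA, Prdm6 loss in the aorta and the Prdm6-deficient tissues, with filled points for called genes. Foxf1 lies at 3.50, -4.93 and -3.19 in the first panels and Foxc1 at -0.72, 1.07 and 0.55, and no point is drawn for Fendrr where the Prdm6-deficient DA had 0 counts.

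Per kilobase of exon the order of these genes in the wall changed with the tissue and the genotype. In control DA the highest mean levels were those of Foxf1 (31.6 CPM per kb) and Foxc2 (26.6 CPM per kb), whose ranges overlapped. Foxs1 (11.1), Foxc1 (10.1) and Foxp1 (7.66 CPM per kb) followed with overlapping ranges, and Foxp2 (2.81), Fendrr (1.56), Foxl1 (0.924), Foxd1 (0.181) and Foxf2 (0.0156 CPM per kb) were lower. In the other 3 groups Foxc2, Foxs1 and Foxc1 led, at 28.9, 26.5 and 21.2 CPM per kb in Prdm6-deficient DA, 26.2, 23.6 and 16.7 in control aorta, and 31.8, 26.9 and 24.5 in Prdm6-deficient aorta. Foxf1 had rank 7 of 10 in Prdm6-deficient DA at 1.03 CPM per kb, rank 5 in control aorta at 2.79 and rank 8 in Prdm6-deficient aorta at 0.301.

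The sum over the 10 genes lay in overlapping ranges, from 80.2 to 102 CPM per kb in control DA, 74.9 to 115 in Prdm6-deficient DA, 67.8 to 107 in control aorta and 85.2 to 109 in Prdm6-deficient aorta. Foxf1 made up 34.0% ± 7.35 of this sum in control DA and 1.16% in Prdm6-deficient DA. The share of Foxs1 was 12.2% and 29.6%, that of Foxc1 10.9% and 24.0%, and that of Foxc2 28.8% and 31.5%. Shares of a sum are tied to one another and depend on the length used: with the longest transcript in place of all exons, Foxp1 made up 14.1% in control DA in place of 8.26%, and Foxp2 6.51% in place of 3.03%.

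**Figure D4:**
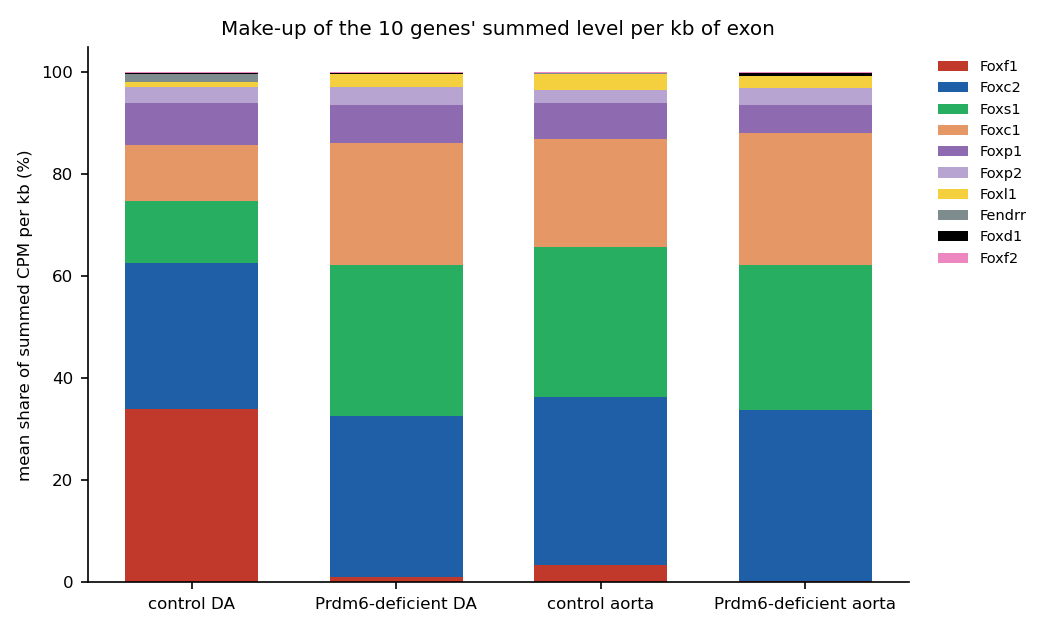
Mean share of each gene in the summed CPM per kilobase of exon of the 10 genes, as 1 stacked bar for each group on a percent axis. Foxf1 takes 34.0% of the control DA bar and 1.16% of the Prdm6-deficient DA bar, where Foxc1, Foxc2 and Foxs1 take 24.0%, 31.5% and 29.6%.

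Genes that start beside the forkhead loci were also looked at. Of 11 protein-coding genes that are no members and start within 500 kb of Foxf1 or Foxc1, 8 were tested. Of these, 1 was called in any comparison, as lower in the DA with loss of Prdm6, where 2.82% of all tested genes were. So few genes cannot show a difference from that share. This gene, 1190005I06Rik, starts 437 kb from Foxf1 and fell from 21.6 to 8.98 CPM in the DA (log2 fold change -1.27, SE 0.21, adjusted p = 1.2e-04). It overlaps Gm27021 on the same strand, so that reads may have been split between them. Mthfsd, which lies between Foxf1 and Foxc2 with its start 24.0 kb from that of Foxf1, was not called in any comparison. The median log2 fold change of the 8 in the DA was -0.05.

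**Figure D5:**
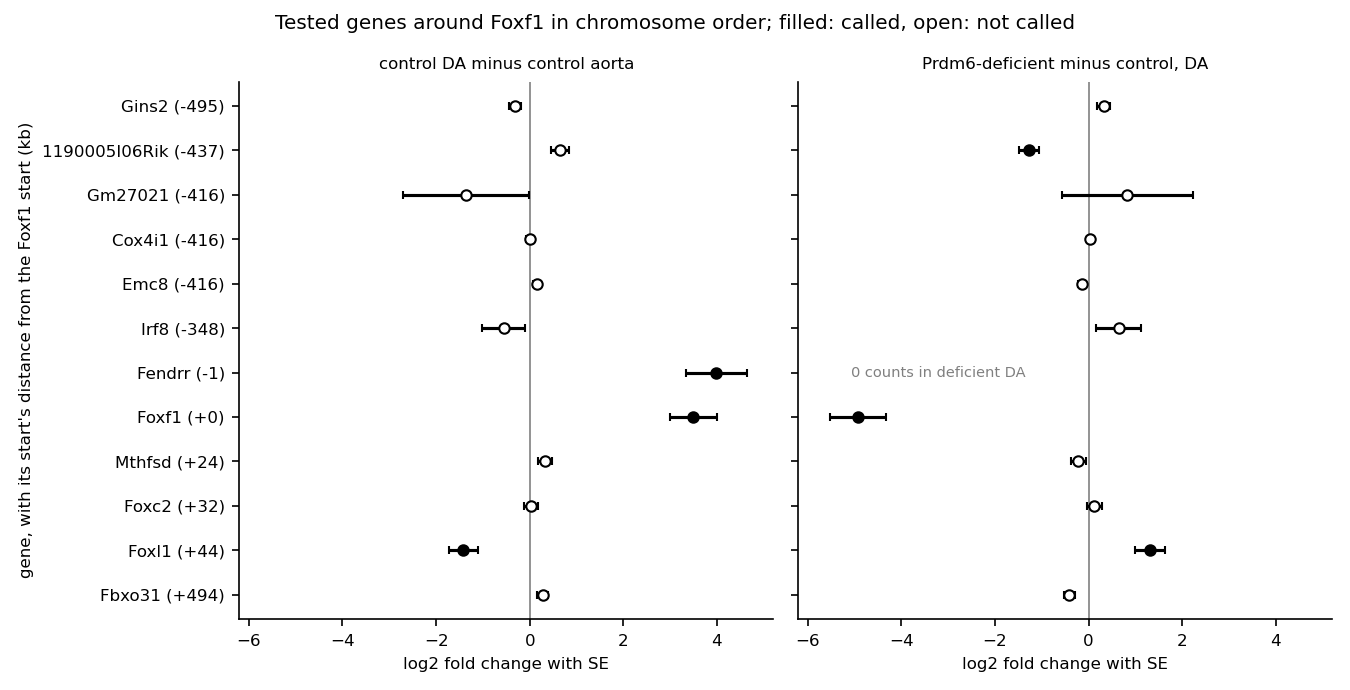
Log2 fold changes with standard errors between the control tissues and with Prdm6 loss in the DA, for the tested genes around Foxf1 in their order along chromosome 8, each with the distance of its start from that of Foxf1 in kb. Foxf1 stands at 3.50 and -4.93, Fendrr has 0 counts in Prdm6-deficient DA and is not drawn there, and the open points of Mthfsd and Foxc2 mark genes that were not called.

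Of 35 other forkhead genes, 16 passed the filter, and 0 were called with Prdm6 loss in either tissue by edgeR's quasi-likelihood test. At an unadjusted p under 0.05 there were 8 in the DA and 2 in the aorta, where 3906 and 2304 of the 16463 genes tested were under it. DESeq2 called 1 of the 16 in the DA and limma-voom 2, and the neural crest factor Foxd3 was called by both. Foxp4, a partner of Foxp1 and Foxp2, differed between the control tissues. It averaged 75.4 CPM in control DA and 38.7 in control aorta, a log2 difference of 0.96 (SE 0.12, adjusted p = 2.9e-06). Its effect of Prdm6 loss was lower in the DA than in the aorta by 0.82 (adjusted p = 0.0063), with changes of -0.47 in the DA and 0.35 in the aorta that did not pass on their own.

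Hedgehog signals through Ptch and Smo to the Gli factors, and Foxf1, Foxl1 and Foxc2 are known as targets in mesenchyme. Of 19 pathway genes 18 were tested, and in the DA 3 rose and 1 fell with loss of Prdm6, where 2.61% and 2.82% of all tested genes did. The median log2 fold change was 0.11, against 0.012 over all tested genes. The list was chosen with earlier results of these data known, so the counts of hedgehog genes are no test of the pathway. Gli1, an effector and readout of the pathway, rose from 10.8 to 30.7 CPM (log2 fold change 1.51, SE 0.28, adjusted p = 4.6e-04). Scube2, which helps to release the ligand, rose from 1.11 to 5.67 CPM (2.35, adjusted p = 0.00158) and Dhh, a ligand, from 32.8 to 52.6 CPM (0.68, adjusted p = 0.00303). Disp1, which exports the ligand, fell from 34.4 to 16.4 CPM (-1.07, adjusted p = 6.5e-05).

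In the aorta 1 of the 18 was called, Scube2 (2.15, adjusted p = 0.00973), against 2.45% of all tested genes. Between control tissues 2 hedgehog genes were higher in the DA, the co-receptor Boc (0.71, adjusted p = 1.0e-05) and Disp1 (0.85, adjusted p = 4.0e-04), and 2 were lower, Gli1 (-1.29, adjusted p = 0.00162) and the pathway inhibitor Hhip (-2.26, adjusted p = 5.7e-04). Over all tested genes 3.16% were called higher and 2.19% lower in that comparison. With the embryo as a block Gli1 and Hhip were not called (adjusted p = 0.0124 and 0.0155).

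Among 22 partners and regulators of forkhead genes, 21 were tested. Tbx2, a T-box repressor of the outflow tract, rose in both tissues, from 13.3 to 53.1 CPM in the DA (log2 fold change 2.0, SE 0.26, adjusted p = 2.6e-06) and from 17.6 to 63.6 CPM in the aorta (1.85, adjusted p = 3.1e-05). Ctbp2, a corepressor that binds FoxP proteins, rose in the DA (0.54, adjusted p = 7.0e-04). Nfatc4, of a family that pairs with FoxP proteins in T cells, was higher in DA than in aorta of controls (0.50, adjusted p = 0.00172). The medians of the list were -0.03 in the DA and 0.00 in the aorta.

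Of 20 genes known to respond to FoxC or FoxF proteins in other tissues, 19 were tested. In the DA 3 rose and 2 fell, where 2.61% and 2.82% of all tested genes did. In the aorta 4 rose and 1 fell, against 1.63% and 0.826%. The medians were 0.36 and 0.47 on the log2 scale, against 0.012 and -0.001 over all tested genes. The list was chosen with earlier results of these data known, so these counts are no test of a response to forkhead proteins. Angpt2, an angiopoietin that responds to Foxc2 in fat, rose in both, from 161 to 358 CPM in the DA (1.15, adjusted p = 2.9e-09) and from 175 to 329 CPM in the aorta (0.91, adjusted p = 5.9e-07). Cyp1b1, an enzyme expressed with Foxc1 in the eye, fell in the DA from 418 to 176 CPM (-1.25, adjusted p = 9.3e-05) and rose in the aorta from 113 to 284 CPM (1.33, adjusted p = 8.8e-05). The difference of these effects was -2.58 (SE 0.29, adjusted p = 2.5e-06). Beside Angpt2, Cyp1b1 and Bmp4, the genes called in the aorta were the endothelial receptor Tek, which rose from 101 to 151 CPM (0.57, adjusted p = 0.0061), and the integrin Itgb3, which fell from 159.7 to 102 CPM (-0.64, adjusted p = 0.00137). Both lie outside the rule for named genes and are given with their values already known.

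Cxcr4, a chemokine receptor that FoxC proteins activate in endothelium, fell in the DA from 7.71 to 2.05 CPM (-1.91, adjusted p = 0.0022), and its effect differed between the tissues by -3.01 (SE 0.58, adjusted p = 0.00139). Bmp4, a growth factor regulated by Foxf1 and Foxl1 in mesenchyme, rose in the aorta from 103 to 275 CPM (1.41, adjusted p = 8.8e-08) and by less in the DA, where 0.41 did not pass (difference -1.01, adjusted p = 0.00131). Fgf2 and Hey2, a Notch target, rose in the DA (0.79 and 0.55, adjusted p = 1.8e-04 and 0.0039) and were lower in DA than in aorta of controls (-0.97 and -0.86).

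The genes whose log2 CPM followed each member most closely were found over the 23 libraries among tested genes whose log2 CPM averaged 1 or more. For Foxc1 they were Stx1a (r = 0.93), Pkdcc (0.93) and Rgs7bp (0.93), and for Foxf1 Sept9 (0.92), Tgfbi (0.91) and Aass (0.91). For Foxd1 they were Mt3 (0.75), 1190002N15Rik (0.75) and Ivd (0.74), and for Foxp2 Unc5b (0.77), Aff3 (0.77) and Ston1 (0.77). These values include the differences between the 4 groups and describe these libraries only. With group means removed, the closest pairs among the members were Foxc1 with Foxc2 (r = 0.47) and Foxc1 with Foxs1 (r = 0.45).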

How the data were processed

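RNA-Seq libraries of the DA and the ascending aorta were grouped by tissue and genotype from the sample labels. The authors filtered reads (base quality at least 20 over 90% of bases), removed adapters with tagdust (false discovery rate 0.001), aligned to mm10 with STAR and a GENCODE annotation they call version 20, and deposited expected counts per gene estimated by RSEM, not normalized. Versions of STAR and RSEM are not given in the sources used here, and counting is not stated to use strand. Expected counts were rounded. Symbols and coordinates came from GENCODE M21 (29 identifiers were not in it) and stretches before gene starts from RefSeq GRCm38.p6.

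The fit was edgeR 4.0.16 in R 4.3.3 (filterByExpr, TMM, quasi-likelihood test, 2-sided, 1 mean per group, 23 libraries, Benjamini-Hochberg over 16463 genes). All adjusted p-values of genes are from it unless another test is named. Calls needed an adjusted p under 0.01 and a log2 fold change of more than 0.5 in size. SE was the log2 fold change divided by the square root of F. DESeq2 1.42.0, limma-voom (limma 3.58.1), other filters, blocks, subsets and leaving out each library were alternatives, and the procedure was tested on simulated data. Exact tests used SciPy 1.17.1. Same-embryo libraries of the 2 tissues deviated together only weakly (median r = 0.02 over 10 pairs), but embryos are shared by label, so values with the embryo as a block are given where they change a call. In these pairs the pooled Prdm6-deficient DA replicate 2 stands beside both aorta replicate 1 and aorta replicate 2.

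All 10 genes are named, and of each list the genes called in a comparison of 2 groups, at most 6 with the largest log2 fold changes. The result of 1 listed gene is not reported here. The members and lists were chosen with earlier results of these data known.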

Additional observations from a re-analysis of the deposited data

Results flagged for a closer look

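In 8 of 39 combinations of a gene and a group, 1 library stood far from the others by Dixon's test. It flags about 1 in 20 groups by chance when values are normally distributed. Groups at or near 0 counts, such as those of Fendrr and Foxf2, are not, so that rate does not hold for them. These were Foxf1 in Prdm6-deficient aorta replicate 4 (2.14 CPM, 46 counts), Fendrr in Prdm6-deficient aorta replicate 3 (0.0462 CPM, 1 count), Foxc2 in control aorta replicate 5 (100.5 CPM), Foxs1 in Prdm6-deficient DA replicate 5 (44.1 CPM) and Foxd1 in the same library (2.47 CPM). The other 3 were Foxf2 in control DA replicate 2 (0.202 CPM), control aorta replicate 5 (0.764 CPM) and Prdm6-deficient aorta replicate 4 (1.16 CPM).

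The effect of Prdm6 loss differed between DA and aorta, by the interaction term of the edgeR fit, for 425 of all genes (2.58%), 0 of the members and 11 of the genes named from the lists or used as markers. Genes named from the lists were picked because they were called in a comparison, so the 11 cannot be set against that share. The DA effect was below the aorta effect on the log2 scale for Bmp4 (-1.01), Cxcr4 (-3.01), Cyp1b1 (-2.58) and Foxp4 (-0.82), and for the smooth muscle and pericyte markers Myh11 (-1.85), Tagln (-0.76), Cnn1 (-1.33), Rgs5 (-2.27) and Kcnj8 (-3.03). For Fgf2 (0.997) and the fibroblast marker Dpt (1.72) it was above it. Among the genes most like a member, the term was also called for Sept9 (-0.89), Tgfbi (-1.53), 1190002N15Rik (-0.90) and Unc5b (-0.86).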

How the results depend on the processing

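The numbers of members called were within 1.5 times of those given in 156 of 171 repeats of the 5 comparisons. The Prdm6-deficient tissues and the difference of effects had 0 calls, so their repeats mostly matched as 0 against 0. A number within this limit can also hide a lost call. Foxp1 between the control tissues kept its call in 11 of 23 fits without 1 library and in 3 of 12 others. For Prdm6 loss in the DA (5 called), 3 were called with the replicate number as a block, with only the compared groups in the fit or with only the second run of animal numbers, and 2 with only the first run. For the aorta (4 called), 2 were called with limma-voom, also with the embryo as a random block, with the replicate block and with the second run only. For control DA against control aorta (6 called), 3 were called with only the compared groups, the second run only or the embryo as a block. Leaving out 1 library gave 3 to 5, 2 to 4, 4 to 7 and 0 to 0 calls in the DA, the aorta, the control tissues and the Prdm6-deficient tissues, and 0 to 1 for the difference of effects. The lowest came without Prdm6-deficient DA replicate 5 (DA) and without Prdm6-deficient aorta replicate 1 or 4 (aorta). The replicate numbers do not follow the embryos (median r = -0.01 over 25 pairs).

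Foxf1 and Foxc1 in the DA were called in all 23 fits without 1 library and all 12 others. Fendrr in the DA was not called in the first run alone (adjusted p = 0.0766), and of the 12 others Foxl1 kept its call in the DA in 6 and Foxs1 in 7. In the second run alone Foxc1 in the aorta was not called (0.57, adjusted p = 0.0189), and the first run held 1 control aorta library, too few for a value. Foxd1 in the aorta was called only with the aorta groups alone. Signs turned only where nothing was called. Between the Prdm6-deficient tissues these were Foxp2 (-0.0038 without a filter, -0.082 in the second run, -0.093 without pools, -0.089 to 0.10 without 1 library), Foxl1 (-0.17 with the replicate block, -0.057 to 0.28), Foxs1 (0.038 with the block, 0.041 without pools, -0.12 to 0.069), Foxc2 (0.021 without pools) and Fendrr (0 in the second run, -1.52 to 0). Without pools Foxd1 in the DA was 0.10 and the Foxc2 difference of effects 0.00057. Foxc2 was -0.38 in the DA in the second run (-0.092 to 0.22 without 1 library) and -0.027 to 0.15 between control tissues. The log2 Fendrr to Foxf1 ratio of Prdm6-deficient minus control aorta was -0.0125 with 0.5 added to counts (-0.43 to 0.58 without 1 library). With 1 added to counts it was 0.64.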
